A study of Homo sapiens with 6 samples.

Results

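The genes described here are the matrix metalloproteinases (MMPs), the ADAMs, the ADAMTS proteases, the ADAMTS-like proteins (ADAMTSL) and the tissue inhibitors of metalloproteinases (TIMPs). They were taken by symbol alone, as every row of the count table named MMP, TIMP, ADAM, ADAMTS or ADAMTSL followed only by a number, which gave 41 of 18544 genes: 10 MMPs, 4 TIMPs, 11 ADAMs, 12 ADAMTS and 4 ADAMTSL genes. Expression was measured by poly-A RNA sequencing in the immortalised line HMEC-1, derived from endothelial cells of small human skin vessels and grown in MCDB131 medium with 5.5 mM glucose. All cultures carried a lentiviral shRNA, which was non-targeting in NTC (n = 3) and directed against SETD7 in Set7KD (n = 3). SETD7, also called Set7, is a lysine methyltransferase acting on histone H3 and on other proteins, and the comparison asks which transcripts of these families differ when it is knocked down. The study used this single line and the labels do not say how many Set7 shRNAs were used, and no culture without a lentivirus was analysed here.

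MMPs, ADAMs and ADAMTS enzymes are zinc-dependent proteases of the metzincin group. MMPs cut collagens, gelatin and other matrix proteins and are made as inactive precursors. Most ADAMs sit in the cell membrane and release the outer parts of receptors, ligands and adhesion molecules, whereas ADAMTS enzymes are secreted and process procollagens, proteoglycans and von Willebrand factor. ADAMTSL proteins have the ancillary domains of the ADAMTS family without the protease domain. TIMPs bind and block the active sites of MMPs and of some ADAMs and ADAMTS enzymes, and TIMP2 also bridges the precursor of MMP2 to MMP14 at the cell surface, where it is activated. In endothelium these enzymes take part in sprouting, in basement membrane turnover and in the shedding of junction proteins.

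Total gene counts were 16385878 to 16953331 per library. CPM are the counts of a gene scaled to the size of its library times its TMM scaling factor. The factors were 1.0087 to 1.0239 in NTC and 0.9789 to 0.9913 in Set7KD, so that 1 count was worth 0.0585 to 0.0618 CPM. SETD7 itself stood at 180.5, 178.4 and 176.1 CPM in NTC and at 27.8, 43.8 and 26.7 in Set7KD (log2 fold change -2.44 ± 0.21, SE; edgeR adjusted p = 0.000927). The endothelial genes TIE1, CDH5 and ERG were detected in every library, and von Willebrand factor (VWF) was low, with a mean of 9.70 ± 2.25 CPM in NTC and 10.1 ± 0.65 in Set7KD (SD over 3 libraries per group, as for all values given with ± unless SE, the standard error, is written). Of 8 fibroblast markers tested, 5 were higher and 0 lower in Set7KD by edgeR, and the summed level of the 8 was 1559 to 2125 CPM in NTC and 3279 to 4250 CPM in Set7KD. Most of that sum was COL1A1 (means of 1555 and 2861 CPM) and COL1A2 (149.3 and 732.7 CPM). LUM, PDGFRB and THY1 were neither higher nor lower. Of 7 smooth muscle and pericyte markers 3 were higher and 0 lower, with sums of 335 to 376 CPM and 691 to 959 CPM. Most of that rise was TAGLN, with means of 96.3 and 551.1 CPM, while ACTA2, CSPG4, MYH11 and RGS5 were neither higher nor lower by edgeR. Of 2 leukocyte markers tested both were lower, with sums of 36.1 to 38.7 CPM and 21.5 to 28.2 CPM. Of 9 endothelial markers 2 were higher and 3 lower, with sums of 485 to 618 CPM and 390 to 425 CPM. Most of that sum was CDH5 (means of 206.4 and 118.6 CPM) and TIE1 (143.5 and 87.3 CPM), which were lower together with EGFL7. TEK (45.1 and 58.8 CPM) and KDR (17.3 and 27.8 CPM) were higher, and EMCN, ERG, ESAM and VWF were neither by edgeR. For comparison, 17.6% of all tested genes were higher and 18.6% lower. With the replicate number as a block 4 endothelial markers were lower, ERG being added, and 4 smooth muscle and pericyte markers higher, CSPG4 being added. The epithelial list had 0 genes tested, and PECAM1 and CLDN5 were not analysed here. The part of these shifts in the results below was not tested. Fewer cells of a type and less RNA per cell cannot be told apart in such bulk libraries.

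Of the 41 genes, 14 were higher and 9 lower in Set7KD (edgeR quasi-likelihood test, Benjamini-Hochberg adjusted p under 0.05 over 18482 genes), and every family held genes that moved in each direction. The called share of 56.1% stands beside a background of 36.2% of all tested genes, with 17.6% higher and 18.6% lower. All 41 passed the filter on low counts, and 40 were above its level of 0.603 CPM in all 6 libraries; the exception was ADAM32. For 30 of the 41 (73.2%) all libraries of one group lay above all of the other, against 47.4% of all tested genes. The median absolute log2 fold change was 0.48 over the 41 genes and 0.22 over all tested genes, and the median signed value was 0.16 and -0.01. A fold of at least 2 with a call was reached by TIMP4, ADAMTS15 and ADAMTS3 among the higher genes and by ADAMTS13, ADAM11 and MMP1 among the lower ones, which is 14.6% of the 41 against 3.2% of all tested genes. Of the 23 called genes, 16 were called under each of 13 alternatives (other scalings, filters and tools, the replicate block and each library left out).

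**Figure D1:**
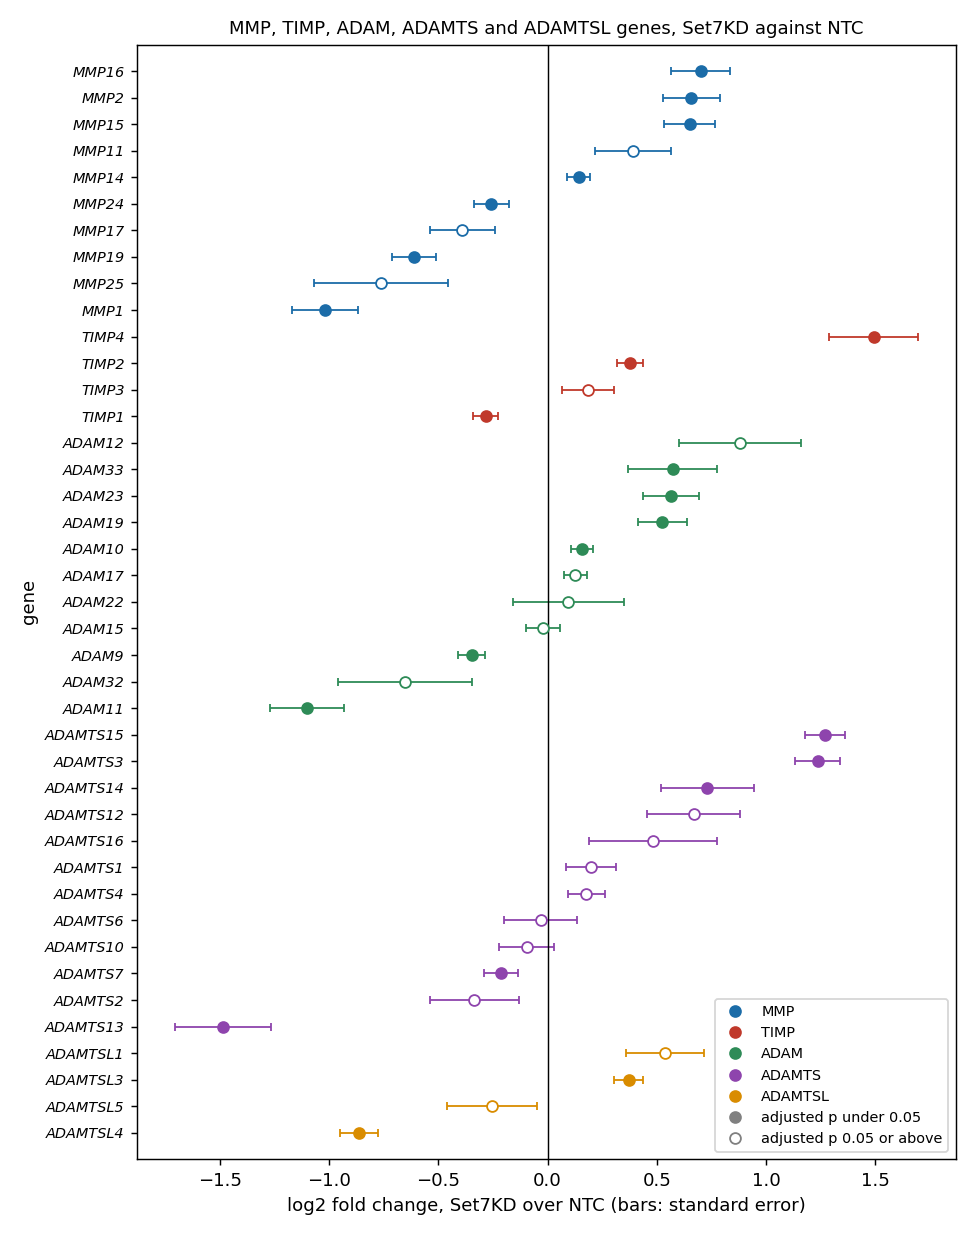
Log2 fold change of each of the 41 genes, Set7KD over NTC, on the horizontal axis, with bars for the standard error and filled points for an adjusted p under 0.05, grouped by family. TIMP4 (1.49) and ADAMTS13 (-1.49) lie at the ends, and each family has filled points on either side of 0.

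The genes differed widely in level. Per kb of annotated exon, a scale that allows for the length of a gene, TIMP2 (96.4 CPM per kb), ADAM9 (93.3), MMP14 (68.99) and TIMP1 (66.5) led in NTC. The next gene, ADAM10, stood at 17.3 CPM per kb. At the lower end ADAM22, ADAMTS16 and ADAM32 had 0.103, 0.124 and 0.141 CPM per kb. In Set7KD the same 4 genes led, but ADAM9 and MMP14 changed places, with 73.4 CPM per kb for ADAM9 and 76.1 for MMP14. MMP1 went from rank 7 to rank 12 and ADAMTSL4 from 17 to 26, while TIMP4 went from 33 to 23 and ADAMTS15 from 15 to 10. Lengths came from an annotation on a later build than the counts, so ranks of genes with close values are uncertain. Each length joins all annotated exons of a gene, so the level per kb is too low where the transcripts present use only part of them. ADAM10 and MMP14 had NTC means of 279.4 and 308 CPM but lengths of 16.17 and 4.46 kb. How much of the gap between them is due to this was not tested.

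**Figure D2:**
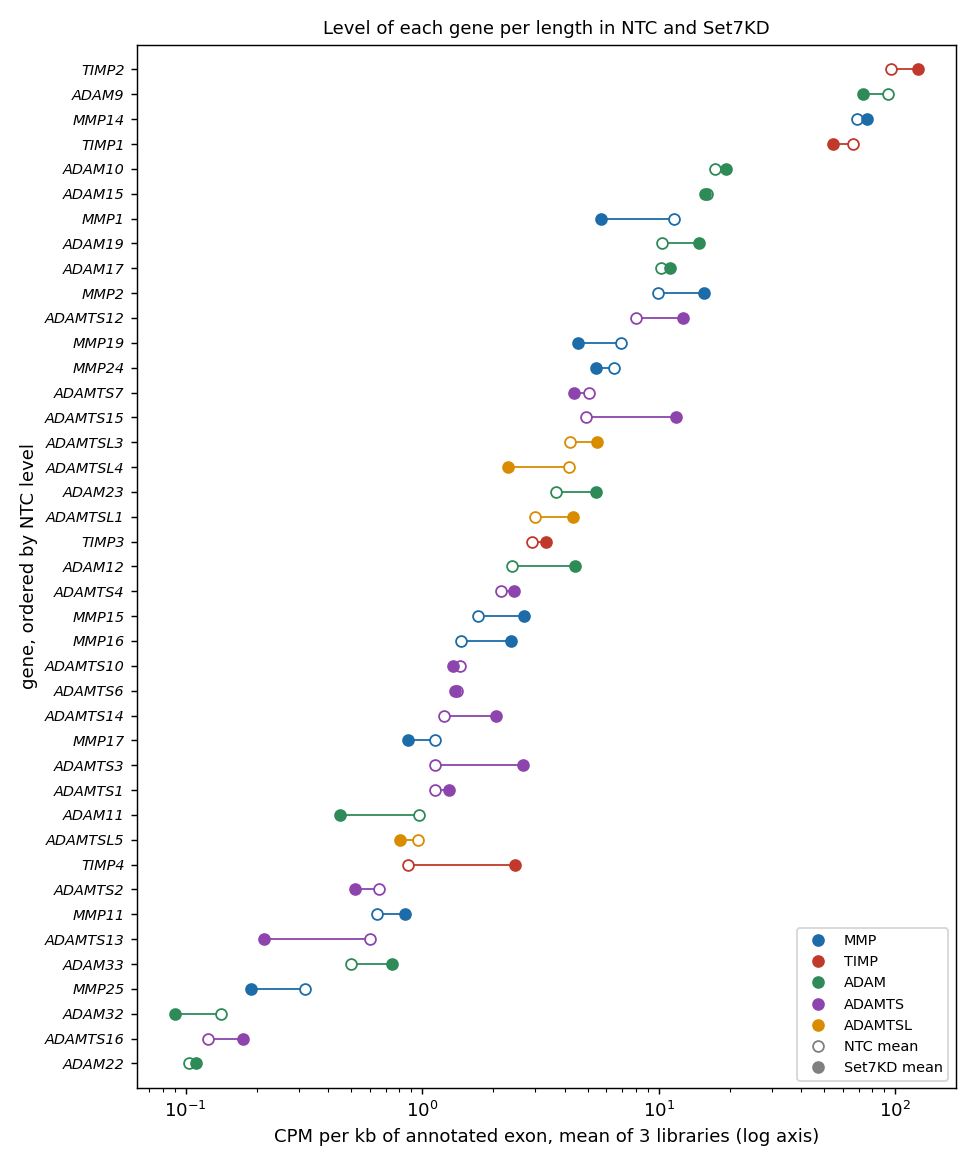
Mean level of each gene in CPM per kb of annotated exon (log axis) in NTC (open) and Set7KD (filled), ordered by the NTC level. TIMP2, ADAM9, MMP14 and TIMP1 stand above 50 CPM per kb in both groups, and ADAMTS15, ADAMTS3 and TIMP4 show the widest gaps to the right.

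Among the secreted MMPs, the collagenase fell and the gelatinase was higher. MMP1, which cuts fibrillar collagens, stood at 23.6, 18.2 and 26.6 CPM in NTC and at 9.56, 11 and 13.2 in Set7KD. The groups did not overlap, and the log2 fold change was -1.02 ± 0.15 (SE; edgeR adjusted p = 0.000378). MMP2, a gelatinase that also cuts basement membrane collagen, had 48.0, 56.7 and 41.8 CPM in NTC and 83.8, 65.8 and 81.6 in Set7KD. The groups were apart, with replicate 2 the highest of NTC and the lowest of Set7KD, and the log2 fold change was 0.66 ± 0.13 (SE; edgeR adjusted p = 0.00625). With the replicate number as a block the call of MMP2 was lost, at an adjusted p of 0.0705. MMP19, a widely expressed secreted MMP, had 31.8, 36.7 and 29.02 CPM in NTC and 20.9, 23.8 and 19.1 in Set7KD, again without overlap. Its log2 fold change was -0.61 ± 0.10 (SE; edgeR adjusted p = 0.000277). MMP11, which furin activates inside the cell, did not pass; its mean was 3.34 ± 0.69 CPM in NTC and 4.38 ± 0.37 in Set7KD, and it was called higher without NTC replicate 3 (adjusted p = 0.0327).

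The exons of MMP1 and MMP19 overlap transcribed pseudogenes on the opposite strand, and the sources used here do not say whether the counting used strand. The overlap covers 17.4% of the exon length of MMP19, and the partner TMEM198B moved alike, from 22.4 to 14.5 CPM with a log2 fold change of -0.63. For MMP1 it covers 7.61%, and the partner WTAPP1 had 2.83 CPM in NTC and 1.70 in Set7KD.

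Of 6 membrane-type MMPs, which act at the cell surface, 3 rose and 1 fell, or 66.7% beside 36.2% of all tested genes. MMP16 rose from 18.3, 13.7 and 21.0 CPM in the NTC libraries to 28.1, 26.6 and 31.4 CPM in Set7KD, and the log2 fold change was 0.70 ± 0.13 (SE; edgeR adjusted p = 0.00191). MMP15 had 7.95, 6.56 and 8.19 CPM in NTC against 11.9, 11.3 and 12.4 CPM in Set7KD, and the log2 fold change was 0.65 ± 0.12 (SE; edgeR adjusted p = 0.00049). In both genes the lowest Set7KD library stood above the highest NTC library. MMP14, the activator of MMP2 and the most abundant MMP here, changed far less: it had 316, 314 and 293 CPM in NTC and 351, 330 and 339 in Set7KD. That is a fold of 1.10, with an edgeR adjusted p of 0.0468. Its call was lost when any library except Set7KD replicate 2 was left out (adjusted p of 0.0617 to 0.174) and with DESeq2 (0.0621).

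The remaining membrane-type MMPs were lower or did not pass. MMP24 fell from 28.7 ± 1.94 to 24.0 ± 1.23 CPM, and the log2 fold change was -0.26 ± 0.08 (SE; edgeR adjusted p = 0.0211). It shares 18.1% of its exon length with the opposite-strand gene MMP24OS, which had 46.8 CPM in NTC and 40.0 in Set7KD. The MMP24 call was lost without NTC replicate 1 (adjusted p = 0.0825), without NTC replicate 3 (0.0686) or without Set7KD replicate 1 (0.112), and with DESeq2 (0.0552). MMP17 and MMP25 are held in the membrane by a lipid anchor. MMP17 had 4.80, 4.46 and 4.39 CPM in NTC and 3.27, 3.46 and 3.68 in Set7KD; the groups were apart, but the edgeR adjusted p was 0.053 (0.0374 with a filter of 50 counts). MMP25 had 1.32 ± 0.40 and 0.78 ± 0.16 CPM and an adjusted p of 0.0645, and was called lower with the replicate block (0.0398) and without NTC replicate 3 (0.0183). Of the MMP25 exon length, 35.2% is shared with MMP25-AS1 on the opposite strand, at 4.10 CPM in NTC and 2.65 in Set7KD.

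**Figure D3:**
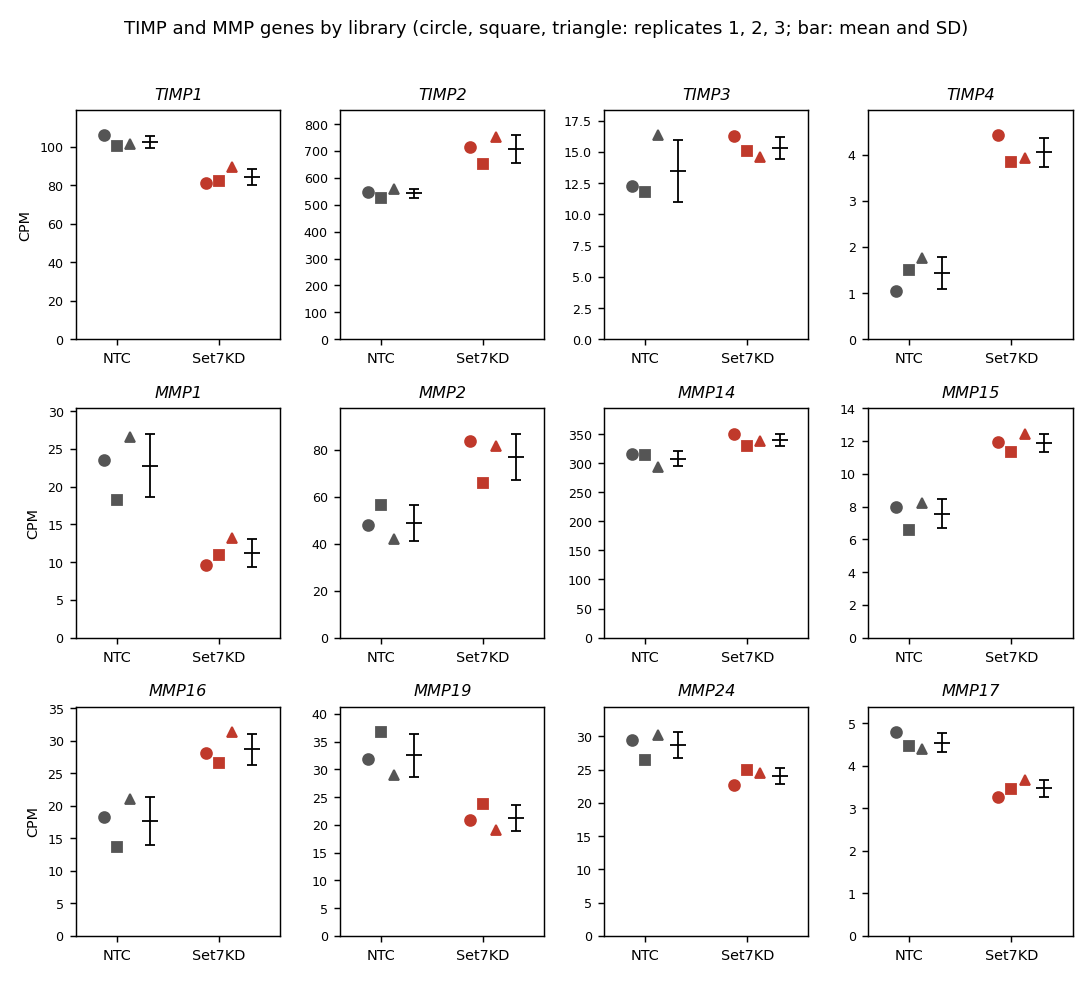
CPM of 4 TIMP and 8 MMP genes in each library, NTC in grey and Set7KD in red, with symbols for the replicate number and bars for mean and SD; each vertical axis starts at 0. MMP1, MMP19 and TIMP1 are lower and MMP2, MMP15, MMP16, TIMP2 and TIMP4 higher in all 3 Set7KD libraries, whereas for TIMP3 NTC replicate 3 (16.32 CPM) is the highest of the 6 libraries, just above Set7KD replicate 1 (16.28 CPM).

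The 4 inhibitors did not move together. TIMP4, an inhibitor with a more restricted tissue range than the others, rose from 1.05, 1.51 and 1.76 CPM in NTC (18, 25 and 30 counts) to 4.42, 3.83 and 3.92 CPM in Set7KD (73, 62 and 64 counts). This is a fold of 2.81, and its log2 fold change was 1.49 ± 0.20 (SE; edgeR adjusted p = 4.78e-05). TIMP2, the bridge between MMP14 and the MMP2 precursor, rose from 548, 525 and 557 CPM to 714, 650 and 753 CPM, and the log2 fold change was 0.38 ± 0.06 (SE; edgeR adjusted p = 0.00017). TIMP1, a broad inhibitor of secreted MMPs, went the other way, from 105.8, 100.3 and 101.3 CPM to 81.3, 82.1 and 89.2 CPM. Its log2 fold change was -0.28 ± 0.06 (SE; edgeR adjusted p = 0.00117). None of these 3 genes had overlapping groups. TIMP3, which binds to the matrix and also blocks ADAM17, had 12.3, 11.8 and 16.3 CPM in NTC and 16.3, 15.1 and 14.6 in Set7KD, and did not pass (edgeR adjusted p = 0.252); it was called higher without NTC replicate 3 (0.0225).

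TIMP1 and TIMP2 moved apart. The ratio of TIMP2 to TIMP1 CPM, not adjusted for length, was 5.18, 5.23 and 5.50 in the NTC libraries and 8.78, 7.92 and 8.44 in Set7KD, a mean of 5.30 ± 0.17 against 8.38 ± 0.43 (SD, n = 3). The ratios did not overlap between the groups, which follows from the opposite shifts of both genes given above and adds no separate result. TIMP2 shares 6.52% of its exon length with AC022966.1 and 3.52% with CEP295NL. These rose from 74.1 to 88.7 CPM and from 46.2 to 55.2 CPM, respectively (edgeR adjusted p = 0.0289 and 0.0129). TIMP4 lies within the span of SYN2, whose exons cover 10.3% of its own and which was not analysed here, and TIMP1 within that of SYN1, both on the opposite strand; SYN1 had 2.75 CPM in NTC and 3.16 in Set7KD.

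The promoters of TIMP4 and TIMP1 are shown because these inhibitors moved in opposite directions. RefSeq windows on GRCh38.p14, from 250 bases before to 50 after the start of the gene, were found for 26 of the 41 genes. MMP1, ADAM11 and ADAMTS15 were among the 15 genes without a window, so their promoters were not searched. Motifs were searched on both strands: TGACTCA (the AP-1 consensus), TGAGTAA (an AP-1 variant), AGGAAG (the PEA3 type of ETS site), GGGCGG (the GC box) and, on the coding strand only, TATAAA. Capitals mark the matches. The TIMP4 window (chr3:12158863-12159162, minus strand) holds AGGAAG at -76 to -71 and GGGCGG at -57 to -52. The TIMP1 window (chrX:47582186-47582485, plus strand) holds the AP-1 variant at -101 to -95, AGGAAG at -87 to -82 and a pair of GC boxes on the reverse strand.
TIMP4: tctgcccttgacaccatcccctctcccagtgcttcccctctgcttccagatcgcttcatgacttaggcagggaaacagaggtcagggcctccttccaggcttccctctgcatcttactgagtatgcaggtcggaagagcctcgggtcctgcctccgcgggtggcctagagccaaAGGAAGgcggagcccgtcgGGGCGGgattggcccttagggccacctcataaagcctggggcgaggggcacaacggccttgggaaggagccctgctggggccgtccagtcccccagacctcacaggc
TIMP1: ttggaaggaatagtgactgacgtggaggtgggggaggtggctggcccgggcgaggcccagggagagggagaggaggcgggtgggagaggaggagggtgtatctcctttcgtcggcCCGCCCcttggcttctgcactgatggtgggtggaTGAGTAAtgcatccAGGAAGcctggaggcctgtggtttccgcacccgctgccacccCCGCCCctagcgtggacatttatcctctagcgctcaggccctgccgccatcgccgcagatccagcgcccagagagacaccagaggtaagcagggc

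TIMP1 was the only gene of the 26 whose window held TGAGTAA, which 2.57% of all 35116 windows hold. The AP-1 consensus was in 0 of the 26 (4.95% of all windows) and TATAAA in 0 (7.33% of all windows). AGGAAG was in 8, or 30.8% (33.6% of all windows), and the GC box in 23, or 88.5% (45.0% of all windows). For the 26 genes only the first listed window of each was used. All 35116 windows were counted without that limit or a limit to genes of the count table, so these shares are of unlike sets. The 26 do not include MMP1. AP-1 and ETS factors are known regulators of several MMP and TIMP genes, and 12 of them were listed for comparison. Of these, 2 rose and 5 fell, beside 17.6% and 18.6% of all genes. With the replicate block 9 fell, FOS, FOSB, FOSL2 and JUNB being added, beside 4090 of all 18482 genes. JUN fell from 573.3 ± 137.5 to 244.1 ± 33.8 CPM (edgeR adjusted p = 0.0186). ETV5 went from 60.8 ± 3.38 to 37.5 ± 4.07 CPM, JUND from 102.4 ± 8.57 to 67.95 ± 6.02 CPM and ETV4 from 9.65 ± 1.41 to 4.47 ± 1.22 CPM, while ELK3 rose from 130.3 ± 2.45 to 157.5 ± 5.01 CPM (n = 3). FOS had 354, 464 and 182.8 CPM in NTC and 110.5, 127.8 and 48.6 in Set7KD, without overlap but with an edgeR adjusted p of 0.0729. Whether these factors act on the genes described here was not tested, and a motif match is a description of the letters only.

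Among 7 ADAMs with protease activity 3 rose and 1 fell, or 57.1% beside 36.2% of all tested genes. ADAM9, a sheddase and the second gene of the set per length, fell from 638, 598 and 699 CPM to 498, 535 and 489 CPM. The groups were apart, and the log2 fold change was -0.35 ± 0.06 (SE; edgeR adjusted p = 0.00051). ADAM19, which sheds neuregulins, rose from 84.6, 68.8 and 85.1 CPM to 130.1, 100.8 and 112.6 CPM, and the log2 fold change was 0.53 ± 0.11 (SE; edgeR adjusted p = 0.00664). ADAM33 rose from 2.93 ± 0.70 to 4.36 ± 0.94 CPM (edgeR adjusted p = 0.0382); its groups were apart by little, 3.63 CPM in the highest NTC and 3.74 CPM in the lowest Set7KD library. The ADAM33 call was lost without NTC replicate 2 (0.143), without NTC replicate 3 (0.0737) or without Set7KD replicate 1 (0.213), and with DESeq2 (0.0745) and limma-voom (0.0529).

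The main sheddases of the cell surface were close to the NTC level. ADAM10, which cuts Notch receptors after ligand binding as well as cadherins, had 271.9, 276.5 and 289.7 CPM in NTC and 314, 316 and 306 in Set7KD, a fold of 1.117 (edgeR adjusted p = 0.0219). This call was lost without NTC replicate 1 (0.114), without NTC replicate 2 (0.0612) or without Set7KD replicate 1 (0.0834). ADAM17, the protease that releases tumour necrosis factor, had 108.7, 110.8 and 109.2 CPM in NTC and 119.7, 125.4 and 114.0 in Set7KD. The groups did not overlap, yet the edgeR adjusted p was 0.0775, and the 95% interval of the log2 fold change ran from 0.01 to 0.24. With the replicate block ADAM17 was called higher (0.035), as it was without Set7KD replicate 3 (0.0455). Its exons overlap those of IAH1 on the opposite strand by 12.3%, and IAH1 had 78.4 CPM in NTC and 77.1 in Set7KD. ADAM15, which binds integrins, had 105.1 ± 8.36 CPM in NTC and 103.5 ± 10.5 in Set7KD, with a 95% interval of -0.19 to 0.14 for the log2 fold change.

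ADAM12, which sheds growth factor precursors such as that of HBEGF, is a gene whose call turned on 1 control library and on the tool. It had 20.7, 17.2 and 32.8 CPM in NTC and 40.7, 50.4 and 39.3 in Set7KD. The edgeR adjusted p was 0.0712 for a log2 fold change of 0.88 ± 0.28 (SE). Without NTC replicate 3 it was 1.197 (adjusted p = 1.04e-05), and ADAM12 was also called with DESeq2 (0.0149) and limma-voom (0.00198). ADAM12 was not called with the replicate block (0.162) or without any other single library (0.0913 to 0.19).

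The ADAMs that lack protease activity act in cell adhesion, and ADAM11, ADAM22 and ADAM23 are best known from neurons. ADAM11 fell from 4.91, 4.76 and 4.15 CPM to 2.36, 2.04 and 2.02 CPM, and the log2 fold change was -1.10 ± 0.17 (SE; edgeR adjusted p = 0.000132). ADAM23, which binds integrins, rose from 22.3, 28.8 and 19.8 CPM to 36.5, 37.0 and 31.3 CPM, and the log2 fold change was 0.56 ± 0.13 (SE; edgeR adjusted p = 0.00621). In neither gene did the groups overlap. ADAM22 stood at 1.26 ± 0.18 and 1.35 ± 0.27 CPM and ADAM32 at 1.416 ± 0.16 and 0.90 ± 0.42 CPM in NTC and Set7KD, and neither passed. ADAM32 was called lower without Set7KD replicate 2 (0.018).

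**Figure D4:**
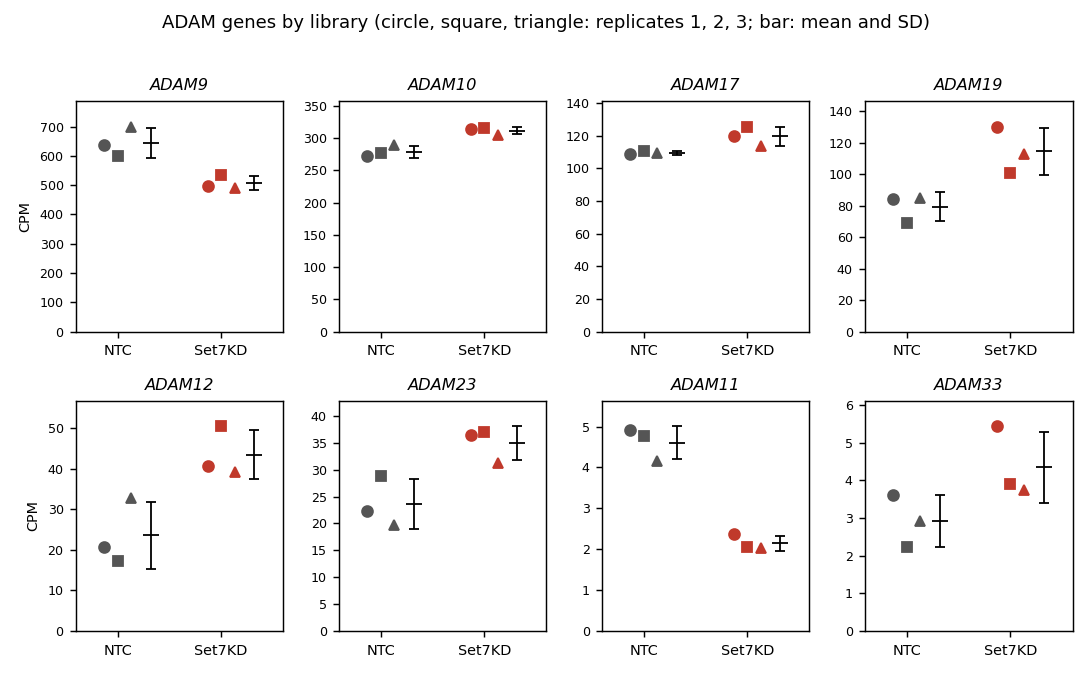
CPM of 8 ADAM genes in each library, NTC in grey and Set7KD in red, with symbols for the replicate number and bars for mean and SD; each vertical axis starts at 0. ADAM9 and ADAM11 are lower in all 3 Set7KD libraries, and NTC replicate 3 of ADAM12 (32.8 CPM) stands above the other NTC libraries.

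Of the 12 ADAMTS genes, 3 rose and 2 fell, a called share of 41.7% that is near the 36.2% of all tested genes. The procollagen N-proteinases ADAMTS2, ADAMTS3 and ADAMTS14 remove the amino-terminal propeptides of fibrillar procollagens, and ADAMTS3 also takes part in the activation of VEGF-C. ADAMTS3 rose from 7.84, 7.71 and 8.78 CPM to 18.0, 19.4 and 20.0 CPM, a fold of 2.36 with little spread in either group. The log2 fold change was 1.24 ± 0.10 (SE; edgeR adjusted p = 4.41e-07). ADAMTS14 rose from 7.84, 3.91 and 7.72 CPM to 11.5, 10.4 and 10.5 CPM, a fold of 1.66 (edgeR adjusted p = 0.0244); without Set7KD replicate 1, 2 or 3 the call was lost (0.0944, 0.0826 and 0.0779). ADAMTS2 did not pass. Its mean was 5.73 ± 1.69 CPM in NTC and 4.55 ± 0.79 in Set7KD, and it was called lower without NTC replicate 2 (0.0435).

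The proteoglycanases cut versican and aggrecan. ADAMTS15 rose from 27.7, 28.96 and 26.97 CPM in the NTC libraries to 74.1, 56.6 and 70.8 CPM in Set7KD. The fold was 2.41 and the log2 fold change 1.27 ± 0.09 (SE; edgeR adjusted p = 4.41e-07). The lowest Set7KD value was far above the highest NTC value. ADAMTS1 had 7.98 ± 0.37 CPM in NTC and 9.16 ± 0.53 in Set7KD, and ADAMTS4 had 22.3 ± 1.98 and 25.2 ± 1.02 CPM. Neither passed (edgeR adjusted p = 0.185 and 0.121). The interval of the log2 fold change was -0.04 to 0.44 for ADAMTS1 and -0.01 to 0.36 for ADAMTS4 (95%), so that a rise as large as that of ADAMTS15 lies outside both.

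Of the 6 other ADAMTS genes, 2 fell, a called share of 33.3% beside 36.2% of all tested genes. ADAMTS13, which cuts von Willebrand factor, fell from 3.33, 3.19 and 3.80 CPM (57, 53 and 65 counts) to 1.57, 1.17 and 0.92 CPM (26, 19 and 15 counts). It was 2.80-fold lower, and the log2 fold change was -1.49 ± 0.22 (SE; edgeR adjusted p = 9.29e-05); the level of its substrate VWF did not pass the test (0.782). ADAMTS7, which cuts cartilage oligomeric matrix protein, had 40.5, 40.5 and 36.7 CPM in NTC and 34.7, 30.8 and 36.0 in Set7KD. The groups were apart by less than 1 CPM, and the edgeR adjusted p was 0.0399. That call was lost without NTC replicate 1 (0.143), NTC replicate 2 (0.11), Set7KD replicate 1 (0.0774) or Set7KD replicate 2 (0.128), and with DESeq2 (0.0927). The annotation names 3 pseudogene copies of ADAMTS7, so its counts are uncertain to the extent that reads were shared.

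ADAMTS12, a relative of ADAMTS7, did not pass although the groups were apart. It had 75.7, 58.5 and 99.99 CPM in NTC and 127.2, 129.9 and 115.6 in Set7KD (edgeR adjusted p = 0.0723). The call was made without NTC replicate 2 (0.00632) or NTC replicate 3 (6.08e-05), with DESeq2 (0.0125) and with limma-voom (0.00233). It was not made with the replicate block (0.152) or without any other single library (0.147 to 0.193). ADAMTS6 and ADAMTS10, which act on fibrillin microfibrils and cell adhesion, had 12.02 ± 3.30 and 8.26 ± 1.02 CPM in NTC and 11.8 ± 1.06 and 7.73 ± 0.48 in Set7KD, and ADAMTS16 was at 0.73 ± 0.05 and 1.02 ± 0.20 CPM. None of these passed.

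The ADAMTSL proteins are matrix proteins without protease activity, and 1 of the 4 rose and 1 fell (50%, beside 36.2% of all tested genes). ADAMTSL4, which binds fibrillin-1, fell from 27.9, 26.0 and 26.9 CPM to 14.3, 15.95 and 14.2 CPM. The separation was wide, and the log2 fold change was -0.86 ± 0.09 (SE; edgeR adjusted p = 2.38e-06). FBN1, the gene for fibrillin-1, went the other way, from 1008 ± 113.5 to 1789 ± 188.8 CPM. ADAMTSL3 rose from 42.2, 42.3 and 39.1 CPM to 55.0, 50.3 and 54.7 CPM, and the log2 fold change was 0.37 ± 0.07 (SE; edgeR adjusted p = 0.00045). ADAMTSL1 had 37.2, 33.0 and 52.6 CPM in NTC and 63.5, 56.3 and 58.6 in Set7KD, with an edgeR adjusted p of 0.0657. It was called higher with the replicate block (0.0335), with DESeq2 (0.0417), with limma-voom (0.00564) and without NTC replicate 2 (0.0458) or NTC replicate 3 (6.98e-06). ADAMTSL5 had 3.48 ± 0.94 and 2.91 ± 0.33 CPM and did not pass. A transcript on the opposite strand, AL356356.1, shares 2.94% of the exon length of ADAMTSL4 and had 2.59 CPM in NTC and 1.67 in Set7KD; ADAMTSL4-AS1, which shares 11.4%, was not analysed here.

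**Figure D5:**
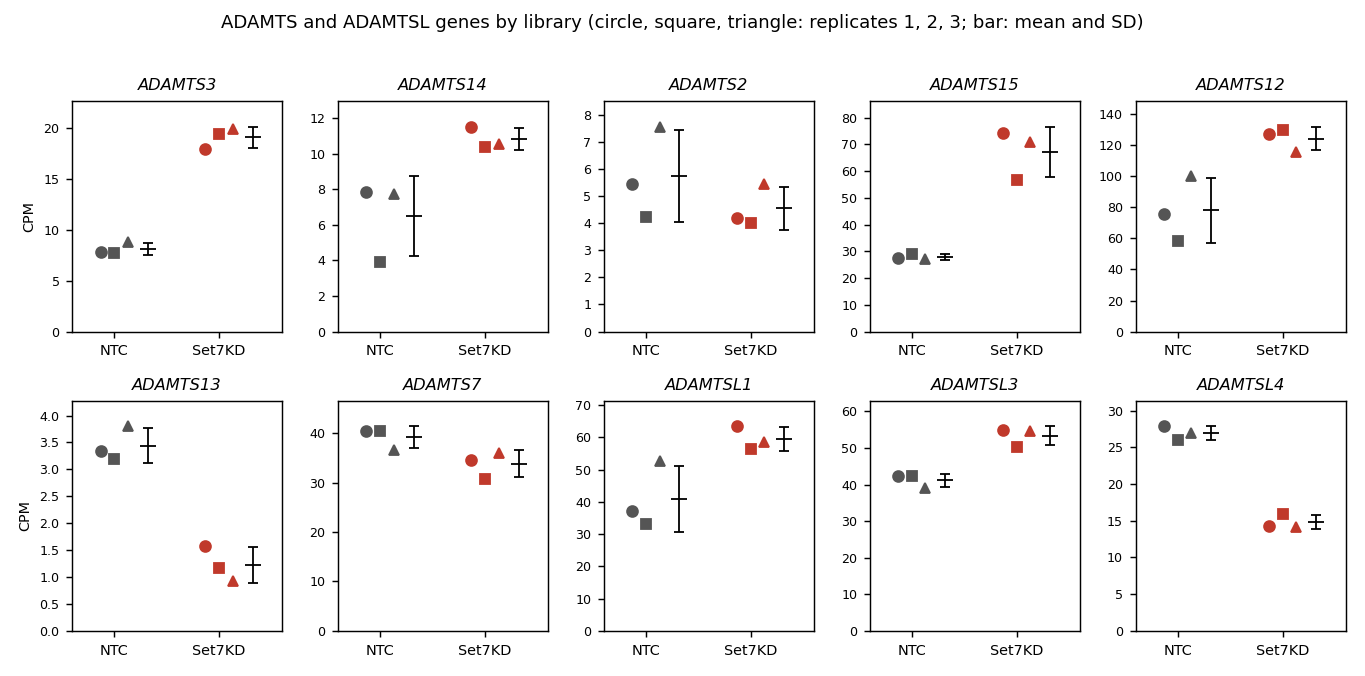
CPM of 7 ADAMTS and 3 ADAMTSL genes in each library, NTC in grey and Set7KD in red, with symbols for the replicate number and bars for mean and SD; each vertical axis starts at 0. ADAMTS3 and ADAMTS15 are more than doubled in all 3 Set7KD libraries relative to the NTC mean, ADAMTS13 and ADAMTSL4 are lower, and NTC replicate 3 stands highest among the controls for ADAMTS12 (99.99 CPM) and ADAMTSL1 (52.6 CPM).

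Promoter windows of the ADAMTS and ADAMTSL genes with the largest called changes and a RefSeq entry are shown in the same form as for the inhibitors, with matches to the searched motifs in capitals. ADAMTS3 (chr4:72569172-72569471, minus strand), which rose, has a GC box on the reverse strand at -44 to -39. ADAMTS13 (chr9:133422117-133422416, plus strand), which fell, has AGGAAG at -62 to -57 and a pair of reverse-strand GC boxes. ADAMTSL4 (chr1:150549158-150549457, plus strand), which also fell, has 4 GC boxes between -71 and -38, and its window is 82.3% G and C, against 72.7% for ADAMTS3 and 60.3% for ADAMTS13.
ADAMTS3: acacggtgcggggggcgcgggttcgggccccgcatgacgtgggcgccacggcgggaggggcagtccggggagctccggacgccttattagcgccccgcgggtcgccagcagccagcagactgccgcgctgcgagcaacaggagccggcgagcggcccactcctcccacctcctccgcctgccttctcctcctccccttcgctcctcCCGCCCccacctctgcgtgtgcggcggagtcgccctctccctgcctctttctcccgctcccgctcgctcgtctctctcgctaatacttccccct
ADAMTS13: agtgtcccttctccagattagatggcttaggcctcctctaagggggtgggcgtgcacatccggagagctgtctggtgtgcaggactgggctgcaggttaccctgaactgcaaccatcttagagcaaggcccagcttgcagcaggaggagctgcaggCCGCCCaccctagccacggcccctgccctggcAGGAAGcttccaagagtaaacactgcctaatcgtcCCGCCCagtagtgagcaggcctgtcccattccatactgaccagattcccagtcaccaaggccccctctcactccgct
ADAMTSL4: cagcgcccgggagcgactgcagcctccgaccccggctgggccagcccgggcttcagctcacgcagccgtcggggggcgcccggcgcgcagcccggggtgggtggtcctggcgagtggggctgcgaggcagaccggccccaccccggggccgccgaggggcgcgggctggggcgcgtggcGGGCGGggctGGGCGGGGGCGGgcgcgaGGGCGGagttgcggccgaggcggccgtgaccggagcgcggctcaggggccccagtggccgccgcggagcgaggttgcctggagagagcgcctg

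Summed over a family, Set7KD lay above NTC in every library for the MMPs, TIMPs, ADAMTS and ADAMTSL genes, but not for the ADAMs. The 12 ADAMTS genes summed to 221.8, 193.6 and 245.2 CPM in NTC and 326, 307 and 314 in Set7KD. In that sum the mean of ADAMTS12, which did not pass, went from 78.1 to 124.2 CPM and that of ADAMTS15 from 27.9 to 67.2 CPM. The 4 TIMPs summed to 667, 638 and 677 CPM against 816, 751 and 861 CPM, of which TIMP2 was the larger part, and the 10 MMPs to 485, 481 and 459 CPM against 536, 502 and 529 CPM, of which MMP14 was the larger part. The 4 ADAMTSL genes summed to 111.6, 103.7 and 122.3 CPM against 135.9, 125.1 and 130.5 CPM. Among them the mean of ADAMTSL1, which did not pass, went from 40.9 to 59.4 CPM, that of ADAMTSL3 from 41.2 to 53.3 and that of ADAMTSL4 from 26.9 to 14.8. The sums of the 11 ADAMs overlapped, with 1269, 1218 and 1342 CPM in NTC and 1253, 1267 and 1213 in Set7KD. These sums follow the most abundant genes and are given without a test.

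Most other inhibitors of these proteases were higher. Of 7 tested genes that restrain MMPs or the proteases that activate them, 5 rose and 0 fell by edgeR, beside the 17.6% of all genes that rose. With the replicate block 4 rose and 1 fell, the latter PAPLN, beside 3826 and 4090 of all 18482 genes. SERPINE2, an inhibitor of plasminogen activators and thrombin, rose from 124.0 ± 12.3 to 268.8 ± 31.6 CPM, and TFPI2, a Kunitz-type inhibitor of plasmin, from 11.5 ± 2.56 to 23.1 ± 1.10 CPM. THBS1, the matrix glycoprotein thrombospondin that binds MMPs, rose from 2240 ± 357 to 4766 ± 673 CPM (edgeR adjusted p = 0.00249), a call that was lost with the replicate block (0.0559). RECK, a membrane-anchored inhibitor of MMPs, rose from 62.6 ± 3.26 to 74.8 ± 2.75 CPM (edgeR adjusted p = 0.00374).

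Of 7 tested activating proteases and their receptors 2 were higher and 1 lower, a called share of 42.9% that is near the 36.2% of all tested genes. PCSK7, a furin-like convertase, had 98.8, 98.99 and 87.2 CPM in NTC and 287.9, 205.0 and 269.9 in Set7KD (edgeR adjusted p = 0.000401). Its exons overlap those of TAGLN on the opposite strand by 446 bases, and TAGLN rose from 96.3 ± 16.8 to 551 ± 116 CPM; reads from either gene cannot be told apart there if strand was not used. PLAU, the urokinase that starts plasmin formation, fell from 210.3 ± 23.6 to 144.3 ± 20.2 CPM (edgeR adjusted p = 0.011), and 31.1% of its exon length overlaps C10orf55 on the opposite strand. BSG, a surface protein that induces MMPs, rose from 364.9 ± 17.1 to 413.7 ± 20.0 CPM (edgeR adjusted p = 0.0191). The BSG call was lost without NTC replicate 1 (0.0549), NTC replicate 3 (0.0732), Set7KD replicate 1 (0.0794) or Set7KD replicate 3 (0.0584). FURIN had 96.6 ± 4.85 and 89.2 ± 6.05 CPM and did not pass.

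Of 9 tested partners that help carry ADAM10 and ADAM17 to the surface 5 fell and 1 rose by edgeR, beside the 18.6% of all genes that fell and the 17.6% that rose. TSPAN14, a tetraspanin that escorts ADAM10, fell from 194.6 ± 10.5 to 143.9 ± 3.79 CPM (edgeR adjusted p = 2.36e-05), and TSPAN15, of the same group, from 15.9 ± 1.15 to 11.4 ± 1.33 CPM (0.00313). RHBDF1 and RHBDF2, the inactive rhomboids needed for ADAM17 maturation, fell from 36.8 ± 1.89 to 30.3 ± 1.195 CPM (0.00621) and from 37.1 ± 2.11 to 28.4 ± 2.88 CPM (0.0019). TSPAN10 also fell (0.0207), TSPAN17 rose from 39.5 ± 0.45 to 46.2 ± 6.04 CPM (0.0462), and TSPAN5, TSPAN33 and FRMD8 did not pass. The call of TSPAN17 was lost without any single library except Set7KD replicate 2 (0.0909 to 0.214), with DESeq2 (0.0676) and with limma-voom (0.0738). That of TSPAN10 was lost without NTC replicate 1 (0.0587), without NTC replicate 2 (0.0644), without Set7KD replicate 1 (0.0961) and with DESeq2 (0.109).

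Of 22 tested surface proteins that ADAMs are known to shed, 6 rose and 7 fell, beside 17.6% and 18.6% of all genes. With the replicate block 8 rose and 8 fell, beside 3826 and 4090 of all 18482 genes. CD44 and VCAM1 were added to the higher and ICAM1 to the lower genes. EFNB2, the arterial ephrin, rose from 38.7 ± 2.43 to 75.6 ± 5.23 CPM (edgeR adjusted p = 1.54e-07) and CDH2, N-cadherin, from 191.1 ± 22.1 to 282.9 ± 13.1 CPM (6.09e-05). The receptor gene TIE1 fell from 143.5 ± 6.74 to 87.3 ± 3.48 CPM (3.42e-07) and the chemokine gene CXCL16 from 14.8 ± 1.99 to 8.38 ± 0.29 CPM (7.84e-05). Among 14 matrix proteins cut by these proteases 8 rose and 2 fell, beside the same 17.6% and 18.6% of all genes. With the replicate block 9 rose and 2 fell, beside the same 3826 and 4090 of all genes. VCAN, the versican cut by ADAMTS15, rose from 122.7 ± 11.7 to 218.1 ± 7.70 CPM, and the fibrillar collagen genes COL3A1 and COL1A2, whose products are substrates of MMP1 and of the procollagen N-proteinases, rose by folds of 6.66 and 4.91. Both collagen genes are also among the fibroblast markers above. FBN2, for fibrillin-2, fell from 749.7 ± 57.7 to 479.6 ± 28.0 CPM. Protein levels and enzyme activity were not measured in the data used here.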

How the data were processed

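Whole-number read counts per gene of 6 HMEC-1 libraries were used as the authors deposited them, without normalization. The tools listed in the submitters' processing notes are BWA and bedtools, and the build is hg19, with no versions; the use of strand is not stated. A row for reads outside genes, with 55.6 to 56.1% of each library, was left out. Each gene row summed to at least 60 counts. The design text calls the libraries biological triplicates without naming separate cultures, so the p-values cover only the spread among them, which may be technical.

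Counts were tested with edgeR 4.0.16 in R 4.3.3 (filterByExpr at 10 counts, TMM, robust glmQLFit, glmQLFTest), Benjamini-Hochberg adjusted over 18482 genes, with calls under 0.05. The script was tested on simulated data. SE is the absolute log2 fold change over the square root of F. Alternatives were DESeq2 1.42.0, limma-voom (limma 3.58.1), other scalings and filters, the replicate block, stricter thresholds and each library left out; leaving out both libraries of a number was added after the data were seen.

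Over 11151 genes of at least 10 CPM, same-numbered libraries deviated together (correlations of 0.3, 0.42 and 0.34). On this ground alone the numbers were treated as pairs in the replicate block. The main edgeR fit, which gave every call for which no alternative is named, left the numbers out. Replicates of a group differed beyond counting noise, with a ratio of chi-square to its degrees of freedom of 2.94 to 9.77.

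Exon lengths and overlaps are from GENCODE 29 (41 of 41 genes matched). Promoters are from the RefSeq table on GRCh38.p14, for the 2 highest and 2 lowest called genes with an entry and at least 1 CPM in both groups, plus TIMP1. Named were called genes, uncalled ones of at least 5 CPM and up to 4 genes of smallest p per related list; further names were chosen after their values were seen. The members and lists were chosen with earlier results of these data known.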

Additional observations from a re-analysis of the deposited data

How the results depend on the processing

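Over the 41 genes, the scaling, the filter, the tool and the replicate block left 14 to 16 genes higher and 7 to 10 lower, against 14 and 9. An adjusted p under 0.01 gave 10 and 7 (4300 of all genes instead of 6690), and a test against a fold of 1.2 gave 6 and 5 (2217 of all genes). Leaving out libraries gave 8 to 17 higher and 6 to 9 lower, and 2976 to 6444 of all genes; the lowest counts came without both replicate 1 libraries (8, 6 and 2976), against 12, 9 and 6150 without both of replicate 2 and 17, 8 and 5609 without both of replicate 3, and the cause was not tested. With the replicate block, which follows the pairing by number, 15 were higher, 10 lower and 7916 of all genes called; MMP2 and THBS1 lost and ADAM17, ADAMTSL1 and MMP25 gained a call, and among the called genes of the families it changed no other call. The 13 planned settings reversed no called gene. Genes near 0 changed sign: ADAM15 had log2 fold changes of 0.025 without NTC replicate 1 and 0.054 without Set7KD replicate 2 (-0.142 to 0.071 over all fits with libraries left out), ADAM22 of -0.021 without NTC replicate 1, -0.066 without Set7KD replicate 1 and as low as -0.185 without both replicate 1 libraries (up to 0.283), and ADAMTS6 of 0.21 without NTC replicate 3 and 0.017 without Set7KD replicate 1 (from -0.177). Without both replicate 1 libraries TIMP1 (adjusted p = 0.0748), MMP2 (0.0726) and ADAM23 (0.114) also lost their calls. Genes near 1 CPM, such as ADAM32 and ADAMTS16, rest on fewer than 30 counts per library, and small changes in them were not detectable at this depth. With a filter of 50 counts ADAM22, ADAM32, ADAMTS16, ADAMTSL5 and MMP25 were not tested.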

Other observations

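The order of the control libraries was uneven over these genes. NTC replicate 2 was the lowest control for 23 of the 41 genes (56.1%, against 33.4% of all tested genes), and NTC replicate 3 was the highest for 19 (46.3%, against 34.0%). ADAM12, ADAMTS12, ADAMTSL1, ADAMTS2 and ADAMTS6 all followed this order, with replicate 2 lowest and replicate 3 highest. So did called genes, among them MMP1, MMP15, MMP16, ADAM9, ADAM19 and TIMP2. Genes of the same library are not independent, so the counts describe these libraries only. This was looked at after the values were seen and is given without a test.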
